A study of Homo sapiens with 30 samples.

Results

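ATF3, the AP-1 genes FOS, FOSB, FOSL1, FOSL2, JUN, JUNB and JUND, and EGR1 were followed across all 30 RNA-seq libraries of a study of p53 in H1299 cells. The 9 genes were taken as the rows of the deposited raw count table whose Ensembl identifiers belong to these symbols, out of 39359 genes in the table, and all 9 passed the filter on low counts. H1299 is a human lung carcinoma line without p53. It was transfected with 1 of 4 plasmids. The pGFP plasmid encodes GFP and no p53. The others add wild type p53, or RW mutant p53 with tryptophan for arginine at a hot-spot codon, or a p53 gene named p53 O6-meG that carries O6-methylguanine in the transcribed strand at this codon. AGT, the cells' own methyltransferase, can repair this lesion. Cultures named p53 TM, for transcriptional mutagenesis, carried the p53 O6-meG vector and were the only ones given O6-bzG, at 10 µM, which inactivates AGT, so the effects of the drug and of the lesion cannot be told apart in them. In the vectors with p53, GFP and p53 were each driven by an inducible promoter of their own, so p53 was supplied from a plasmid and not from its own locus. Cells positive for GFP were collected by FACS 6 h or 24 h later, and each of the 10 groups has 3 replicates. The methods of the study call the replicates biological, while the labels do not say which cultures they came from, and P values measure the spread between these libraries.

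The 9 genes encode transcription factors. Several of them, such as FOS, JUNB and EGR1, are immediate early genes, whose transcription can be switched on by growth factors, stress and UV without new protein synthesis. FOS and JUN proteins pair through leucine zippers to form AP-1, which binds the AP-1 site TGANTCA. FOS family proteins need a JUN partner, whereas JUN proteins can also pair with each other. ATF3 is a stress-induced zipper protein that pairs with JUN proteins and can repress or activate its targets, and it is known as a target of p53. EGR1 is a zinc finger factor that binds GC-rich sites. FOS and EGR1 are known for control by SRF and its cofactors at CArG boxes, downstream of the MAPK cascade. FOSL1, also called FRA-1, is known for high levels in invasive carcinoma cells.

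On hg38, ATF3 (ENSG00000162772.16) lies at chr1:212565334-212620777 on the plus strand, FOS (ENSG00000170345.9) at chr14:75278826-75282230 on the plus strand and FOSB (ENSG00000125740.13) at chr19:45467995-45475179 on the plus strand. FOSL1 (ENSG00000175592.8) lies at chr11:65892049-65900573 on the minus strand and FOSL2 (ENSG00000075426.11) at chr2:28392448-28417317 on the plus strand. JUN (ENSG00000177606.6) lies at chr1:58776845-58784048 on the minus strand, JUNB (ENSG00000171223.5) at chr19:12791486-12793315 on the plus strand, JUND (ENSG00000130522.5) at chr19:18279694-18281622 on the minus strand and EGR1 (ENSG00000120738.7) at chr5:138465479-138469303 on the plus strand. FOSB, FOSL2 and JUNB overlap ERCC1, FOSL2-AS1 and HOOK2 on the opposite strand. Whether strand was used in counting is not given in the sources used here, so reads of these genes and of their partners may not be separated.

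The depth of the libraries ran from 32302699 to 71950532 counted reads (median 44424643). In CPM (counts scaled to library size, after TMM normalization), the keratin KRT18 stood between 273 and 720 CPM and vimentin, VIM, between 1940 and 3580 CPM, whereas the leukocyte marker PTPRC and the endothelial marker CDH5 stayed at or below 0.0501 and 0.0737 CPM. Of the 3 listed endothelial markers, CDH5, VWF and PECAM1, 2 passed the filter on low counts. VWF reached at most 0.993 CPM and was higher with wild type p53 at 24 h (1.69 ± 0.34 on the log2 scale). From 6 h to 24 h both tested markers were higher with pGFP (median log2 fold change 1.94). The same held with wild type p53, p53 O6-meG and p53 TM, while with RW mutant p53 only 1 was higher. Between 39.3% and 49.1% of all genes passed in these comparisons, and the part of these markers in the results was not tested. For replicate 2 at 6 h, the title of the p53 O6-meG library and that of the p53 TM library each name both groups. CDKN1A, the p53 target that encodes p21, stood at 50 CPM in the library labelled p53 O6-meG replicate 2 and at 249 CPM in the library labelled p53 TM replicate 2, against 268 and 261 CPM in the other p53 O6-meG libraries and 65.7 and 57.7 CPM in the other p53 TM libraries. MDM2, also a p53 target, stood at 300 and 1180 CPM in these 2 libraries. It stood at 1150 and 972 CPM in the other p53 O6-meG libraries and at 286 and 348 CPM in the other p53 TM libraries. The levels of both genes in the 2 libraries therefore lie against their labels, and the column names of the count table also place each in the other group. The 6 h results on these groups are given as labelled, with the pair exchanged (the other grouping) and without the pair. At 24 h, libraries of the same replicate number in different groups deviated together (median correlation of deviations 0.434 over 30 pairs, lowest 0.192), and a fit of the 24 h libraries with the replicate number as a block, chosen after seeing the data, is given where it changes a call. What the number stands for is not stated.

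The promoters of FOS, FOSB, JUNB and EGR1 are shown because these were the genes that rose between 6 h and 24 h in cells with pGFP. Each sequence runs from 250 bases before to 50 bases after the RefSeq start site (GRCh38.p14) and is read in the direction of transcription. Capitals mark the TATA box TATAAA in FOS, FOSB and JUNB, and in EGR1 an EGR site, GCGNGGGCG, followed by a pair of CArG boxes.
FOS, chr14:75278578-75278877, plus strand: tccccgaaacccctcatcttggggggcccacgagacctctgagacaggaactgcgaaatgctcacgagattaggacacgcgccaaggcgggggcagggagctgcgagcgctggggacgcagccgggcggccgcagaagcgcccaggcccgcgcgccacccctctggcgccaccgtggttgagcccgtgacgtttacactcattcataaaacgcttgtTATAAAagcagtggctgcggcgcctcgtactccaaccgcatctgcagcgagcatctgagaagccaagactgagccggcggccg
FOSB, chr19:45467746-45468045, plus strand: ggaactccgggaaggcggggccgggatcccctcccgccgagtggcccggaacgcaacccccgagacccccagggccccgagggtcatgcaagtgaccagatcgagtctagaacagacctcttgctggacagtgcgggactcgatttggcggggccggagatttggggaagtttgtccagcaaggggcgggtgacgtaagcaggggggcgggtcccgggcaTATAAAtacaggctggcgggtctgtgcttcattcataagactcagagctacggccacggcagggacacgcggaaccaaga
JUNB, chr19:12791236-12791535, plus strand: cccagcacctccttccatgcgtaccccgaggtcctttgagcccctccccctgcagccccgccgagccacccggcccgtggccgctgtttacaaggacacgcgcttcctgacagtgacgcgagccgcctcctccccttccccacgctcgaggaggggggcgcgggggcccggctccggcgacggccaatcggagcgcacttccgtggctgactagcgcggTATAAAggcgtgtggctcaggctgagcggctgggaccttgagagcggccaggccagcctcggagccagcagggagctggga
EGR1, chr5:138465229-138465528, plus strand: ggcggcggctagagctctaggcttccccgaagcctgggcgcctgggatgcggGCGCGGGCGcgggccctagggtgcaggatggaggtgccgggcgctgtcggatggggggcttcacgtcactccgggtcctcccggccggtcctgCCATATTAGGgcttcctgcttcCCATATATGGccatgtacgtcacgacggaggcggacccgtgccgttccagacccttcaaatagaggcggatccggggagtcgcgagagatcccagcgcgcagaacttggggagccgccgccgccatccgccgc
The TATA box ended 28 bases before the start site in FOS, 25 in FOSB and 26 in JUNB. It was found on either strand in 11.5% of all 35116 RefSeq promoters of this length. The CArG boxes of EGR1 lay at -105 to -96 and -83 to -74, and 1.29% of promoters held one. Its EGR site lay at -198 to -190, with a site in 9.43% of promoters. Of the other genes, FOSL2 held an AP-1 site at 5 to 11 bases after the start (7.71% of promoters), JUND the CRE TGACGTCA at -200 to -193 (1.85%), and the second of the ATF3 windows a TATA box at -230 to -225. JUN held none of the searched motifs, and no window held the p53 half-site that 6.63% of promoters held. FOSL1 had no entry in the table. These are matches of letters in 1 window per start site and do not show binding. Sites outside the window, CArG boxes among them, were not searched.

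Per kilobase of exon, FOSL1 was the most abundant of the 9 genes with pGFP at 6 h, at 34.5 ± 5.45 CPM per kb (SD, n = 3). JUND and EGR1 followed at 15.8 ± 1.07 and 15.7 ± 3.98 CPM per kb, and JUNB and JUN at 11.7 ± 0.361 and 11.3 ± 0.265 CPM per kb. JUND and EGR1 differed by less than the spread between replicates, and JUNB and JUN by little more than it. FOS stood at 6.13 ± 0.343, FOSL2 at 3.91 ± 0.42, ATF3 at 1.79 ± 0.178 and FOSB at 1.27 ± 0.166 CPM per kb. By 24 h the order of the pGFP levels had changed. EGR1 led at 60.1 ± 6.12 CPM per kb, and FOS, at 28.4 ± 3.31, had reached the range of FOSL1, at 31.3 ± 11. ATF3 was then the lowest, at 1.96 ± 0.125 CPM per kb.

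The question of the time comparison was how the genes changed between 6 h and 24 h after transfection, first with pGFP alone. FOS, FOSB, EGR1 and JUNB rose, and the other 5 genes did not pass the test. FOS counted 20.3, 18.3 and 20.1 CPM at 6 h and 86.2, 103 and 82.7 CPM at 24 h in the 3 replicates. The groups lie far apart, with a log2 fold change of 2.21 ± 0.20 (SE) and an adjusted P of 5.12e-09 by the quasi-likelihood test of edgeR, Benjamini-Hochberg adjusted over 20875 genes, which is the test behind every adjusted P given here. EGR1 stood at 40.7, 43.6 and 63.6 CPM at 6 h and at 210, 181 and 174 CPM at 24 h. Its log2 fold change was 1.93 ± 0.27 (adjusted P 3.52e-06 by edgeR). FOSB, a FOS relative known for slower and more stable products, went from 6.08, 7.90 and 7.17 CPM to 27.9, 41.3 and 32.6 CPM. This was a log2 fold change of 2.27 ± 0.37 (adjusted P 2.38e-05 by edgeR), as large as that of FOS within its error. JUNB, a JUN relative with weaker activation in many settings, went from 21.7, 21.9 and 20.7 CPM to 32.4, 41.6 and 39.8 CPM, a smaller rise of 0.83 ± 0.16 (adjusted P 1.82e-04 by edgeR). The 4 genes of 9 that passed stand beside 40.1% of all genes tested, so the count is near the share among all genes. Cells were collected at 6 h and at 24 h, and the labels do not give the sorting sessions. Whether time after transfection can be told apart from sorting session in comparisons of 6 h with 24 h is therefore not known. In sorted bulk samples a change in the share of cells that express a gene and a change in RNA per cell cannot be told apart.

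FOS, EGR1 and JUNB rose from 6 h to 24 h with the other vectors too. With RW mutant p53 the 4 genes again passed (39.3% of all genes), with log2 fold changes of 1.68 ± 0.19 for FOS, 1.70 ± 0.27 for EGR1, 1.60 ± 0.36 for FOSB and 0.86 ± 0.16 for JUNB. With wild type p53 they were 2.47 ± 0.20, 2.13 ± 0.27, 1.96 ± 0.37 and 1.36 ± 0.16. There FOSL2, an AP-1 gene that is usually steadier than FOS, also passed at 0.65 ± 0.24 (adjusted P 0.0284 by edgeR), so that 5 genes of 9 stood beside 45% of all genes. FOSL2 lost this call without any 1 of 4 libraries, replicates 2 and 3 at 24 h and replicates 1 and 2 at 6 h (adjusted P up to 0.142). In p53 TM, FOS, EGR1, FOSB and JUNB passed (45.8% of all genes), with FOSB at 1.09 ± 0.36 (adjusted P 0.0154 by edgeR). This call on FOSB was lost under the other grouping (adjusted P 0.0549), without both libraries of conflicting title (0.0698) and without the library labelled p53 TM replicate 2 at 6 h (0.0889). Under the other grouping FOSL2 passed in its place (0.55 ± 0.23, adjusted P 0.0499).

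With p53 O6-meG, FOS, EGR1 and JUNB passed (3 genes of 9 beside 49.1% of all genes) and FOSB did not. FOSB stood at 15.5, 22.1 and 14.7 CPM at 24 h, and at 6.27, 8.92 and 28.7 CPM at 6 h. The third library at 6 h was the highest of all 15 libraries of that time and above every p53 O6-meG library at 24 h. The log2 fold change of FOSB over time was 0.27 ± 0.35 with it and 1.20 without it (adjusted P 0.00139 by edgeR). It did not pass either under the other grouping (0.42 ± 0.37) or without the pair of conflicting title (0.01 ± 0.35). The same library also held the highest FOSL1, FOSL2, JUNB and JUND levels of the 6 h libraries, at 117, 37.2, 30.9 and 47.5 CPM. Its EGR1 level, 40.2 CPM, was at the lower end.

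Whether the change over time differed between a p53 vector and pGFP was tested as an interaction. No gene of the 9 passed for wild type p53 (4.9% of all genes passed), where the nearest was JUNB at 0.54 ± 0.22 (adjusted P 0.188 by edgeR). None passed for p53 TM as labelled (0.00479% of all genes), with FOS at -0.59 ± 0.27. FOS passed at a log2 difference of -0.78 under the other grouping (4.38% of all genes) and of -0.87 without the pair of libraries (3.1%), 1 gene of 9 in each. For p53 O6-meG FOSB passed (8.29% of all genes), as it did under the other grouping and without the pair, and this result rested on the third library at 6 h.

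ATF3 was the gene that p53 moved at both times. At 6 h it counted 7.31, 6.41 and 7.78 CPM with pGFP and 11.6, 13.3 and 14.6 CPM with wild type p53. The groups do not overlap, and ATF3 was the only 1 of the 9 genes that passed (8.75% of all genes passed), at a log2 fold change of 0.88 ± 0.17 and an adjusted P of 0.00166 by edgeR. At 24 h it counted 8.07, 8.18 and 7.27 CPM with pGFP and 17.9, 13.6 and 16.6 CPM with wild type p53, a log2 fold change of 1.03 ± 0.18 (adjusted P 4.05e-05 by edgeR). The rise was of like size at both times, with a difference of 0.15 ± 0.25 between them (95% interval -0.35 to 0.66). With RW mutant p53 ATF3 stood at 6.11, 5.50 and 7.99 CPM at 6 h and at 7.39, 7.93 and 9.15 CPM at 24 h, within or next to the pGFP range. None of the 9 genes passed between RW mutant p53 and pGFP at 6 h or at 24 h, where 0.00479% of all genes passed at each time and 0.0149% in the 24 h fit with the block.

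The lesion vector gave ATF3 levels like those of wild type p53. At 24 h p53 O6-meG libraries counted 15.1, 13.5 and 16.8 CPM, higher than pGFP by 0.95 ± 0.18 on the log2 scale (adjusted P 1.53e-04 by edgeR). At 6 h the libraries labelled p53 O6-meG counted 15.8, 9.16 and 13.5 CPM, a log2 fold change over pGFP of 0.84 ± 0.18 (adjusted P 0.0297 by edgeR; 0.35% of all genes passed and no other of the 9 genes). Without any 1 library other than replicate 2 this 6 h call was lost, with adjusted P up to 0.322. It was kept under the other grouping (0.98 ± 0.17, adjusted P 1.66e-04; 7.35% of all genes) and without the pair of libraries (1.03 ± 0.17, adjusted P 2.05e-04; 4.85%), where FOSB passed as well (1.30 ± 0.35, adjusted P 0.0259). Between p53 O6-meG and wild type p53 none of the 9 genes passed at 6 h (0.00479% of all genes as labelled, 0.00479% under the other grouping and 0% without the pair) or at 24 h (0%, and 0.368% in the fit with the block). The 24 h difference in ATF3 was -0.09 ± 0.17, with a 95% interval from -0.44 to 0.27.

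At 24 h wild type p53 also raised a FOS and a JUN relative. FOSL1 stood at 36.7, 63.2 and 77.4 CPM with pGFP and at 114, 102 and 138 CPM with wild type p53. Each wild type library exceeded each pGFP library, at a log2 fold change of 1.00 ± 0.26 (adjusted P 0.00375 by edgeR). JUNB stood at 32.4, 41.6 and 39.8 CPM with pGFP and at 48.7, 65.9 and 56.6 CPM with wild type p53, again without overlap (0.59 ± 0.16, adjusted P 0.00423). With ATF3, these were the 3 genes of 9 that passed, beside 34.9% of all genes, so the count of 3 is near that share. FOS, EGR1, JUN, JUND and FOSL2 did not pass. FOS was nearly level between the groups, at a mean of 91.5 against 90.5 CPM, with a 95% interval of the log2 difference from -0.37 to 0.40. At 6 h FOSL1 was 76.5, 79.2 and 93.4 CPM with wild type p53 against 54.9, 65.0 and 75.5 CPM with pGFP and did not pass (0.35 ± 0.26, adjusted P 0.564). JUN, at 29.1, 27.4 and 31.4 CPM, was below every pGFP library at 6 h, with 42.0, 40.5 and 40.3 CPM, and did not pass either (-0.48 ± 0.34, adjusted P 0.54).

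FOSB lay on the other side. At 24 h it counted 27.9, 41.3 and 32.6 CPM with pGFP, and 20.8, 21.2 and 24.3 CPM with wild type p53. The RW mutant p53 libraries held 24.9, 17.2 and 24.7 CPM, those of p53 O6-meG 15.5, 22.1 and 14.7 CPM and those of p53 TM 17.1, 18.0 and 18.2 CPM. Every library with a p53 vector was thus below every pGFP library, and the same 3 pGFP libraries serve all 4 comparisons. Over all libraries the log2 fold change passed with p53 O6-meG (-0.96 ± 0.35, adjusted P 0.0412 by edgeR), which made 3 genes of 9 together with ATF3 and FOSL1 (29.3% of all genes passed). It did not with wild type p53 (-0.62 ± 0.35, adjusted P 0.18), RW mutant p53 (-0.61 ± 0.35, adjusted P 1) or p53 TM (-0.94 ± 0.35, adjusted P 0.101). The p53 O6-meG call was lost without pGFP replicate 2 or 3 or p53 O6-meG replicate 1 or 3 (adjusted P up to 0.149). In the 24 h fit with the replicate block FOSB was lower with wild type p53 (-0.63 ± 0.15, adjusted P 0.002), p53 O6-meG (-0.97 ± 0.16, adjusted P 5.77e-05) and p53 TM (-0.96 ± 0.15, adjusted P 1.90e-04), while RW mutant p53, at -0.60 ± 0.15, had an adjusted P of 1. In that fit 4 of the 9 genes passed for wild type p53, ATF3, FOSL1, JUNB and FOSB (51.3% of all genes).

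With p53 O6-meG at 24 h FOSL1 stood at 97.2, 94.9 and 130 CPM, above every pGFP library (0.86 ± 0.26, adjusted P 0.0134 by edgeR). This call was lost without pGFP replicate 1 or p53 O6-meG replicate 3 (adjusted P up to 0.104). JUNB, at 39.3, 56.5 and 51.2 CPM, overlapped with pGFP and did not pass over all libraries (0.37 ± 0.16, adjusted P 0.0801). Within replicate numbers its ratio to pGFP was 1.21, 1.36 and 1.29. In the fit with the block JUNB passed at 0.34 ± 0.06 (adjusted P 1.02e-04) and JUN at -0.32 ± 0.10 (adjusted P 0.0164), so that 5 of the 9 genes passed beside 45.9% of all genes.

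**Figure D1:**
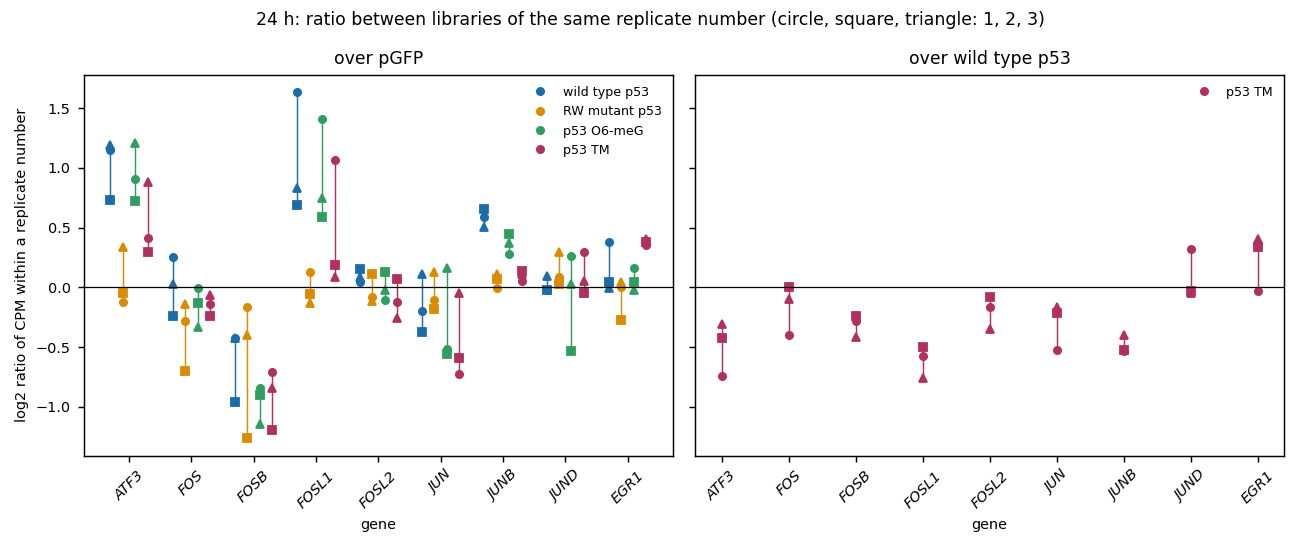
Log2 ratio of CPM between 24 h libraries of the same replicate number for the 9 genes, over pGFP (left) and of p53 TM over wild type p53 (right), with 1 point per replicate number. ATF3, FOSL1 and JUNB lie above 0 in all replicates with wild type p53 and below 0 in all replicates of p53 TM over wild type p53. FOSB, FOSL2 and JUN also lie below 0 in all replicates on the right, and FOSB lies below 0 in every vector on the left.

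The comparison of p53 TM with wild type p53 asked whether the p53 responses were weaker with the lesion vector and AGT inactivated. At 24 h ATF3 counted 10.7, 10.1 and 13.4 CPM in p53 TM, below every wild type library (-0.49 ± 0.17, adjusted P 0.0491 by edgeR), and above every pGFP library (0.54 ± 0.18, adjusted P 0.0498; 9.2% of all genes passed and no other of the 9 genes). These libraries held 34.9%, 27.6% and 67.9% of the mean rise that wild type p53 gave over pGFP. CDKN1A held 56.4%, 65.8% and 42.4% of its own rise, and MDM2, another p53 target, held 111%, 94.1% and 61.6%. These shares are taken against group means and so also hold the differences between replicate numbers. Within replicate numbers the ratio of p53 TM to wild type p53 was 0.598, 0.743 and 0.807 for ATF3. It was 0.676, 0.534 and 0.563 for CDKN1A and 0.951, 0.888 and 0.847 for MDM2. The ratio was also below 1 in all replicates for genes that did not pass as higher with wild type p53. It was 0.822, 0.849 and 0.749 for FOSB, 0.894, 0.947 and 0.786 for FOSL2 and 0.693, 0.861 and 0.893 for JUN. FOS, JUND and EGR1 were not below 1 in every replicate. A fall in p53 TM was thus not limited to the genes raised by wild type p53. JUNB, at 33.6, 45.8 and 42.8 CPM, was lower than with wild type p53 by -0.49 ± 0.16 (adjusted P 0.0304), without overlap. FOSL1, at 76.7, 72.1 and 81.7 CPM, also stood below every wild type library but did not pass (-0.62 ± 0.26, adjusted P 0.1). The 2 genes that passed of 9 stand beside 18.5% of all genes. Both calls against wild type p53 were lost under 2 of the other settings, as was ATF3 against pGFP under 4 of them, and each was lost in most fits with 1 library left out.

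In the 24 h fit with the block, 6 of the 9 genes differed between p53 TM and wild type p53, beside 38.7% of all genes. ATF3 (-0.50 ± 0.10, adjusted P 9.23e-04 by edgeR), FOSL1 (-0.62 ± 0.14, adjusted P 0.00164), JUNB (-0.50 ± 0.06, adjusted P 3.77e-06), JUN (-0.30 ± 0.10, adjusted P 0.0291) and FOSL2 (-0.21 ± 0.06, adjusted P 0.0111) were lower. EGR1 alone was higher, at 0.22 ± 0.08 (adjusted P 0.0456). EGR1 counted 268, 235 and 229 CPM in p53 TM and 274, 187 and 173 CPM with wild type p53, so the first replicate pair does not share the direction. Against pGFP, with 210, 181 and 174 CPM, EGR1 in p53 TM was higher in all 3 pairs, by 1.28, 1.30 and 1.32 times. In the fit with the block it passed (0.34 ± 0.08, adjusted P 0.00565), as did ATF3, FOSB and, at -0.48 ± 0.10 (adjusted P 0.00231), JUN, which made 4 genes of 9 beside 23% of all genes. Over all libraries without a block the EGR1 difference was 0.37 ± 0.26 and did not pass.

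Against p53 O6-meG at 24 h, the same plasmid without the drug, none of the 9 genes passed over all libraries (6.5% of all genes). With the block 4 genes passed beside 26.8% of all genes. ATF3 (-0.41 ± 0.10, adjusted P 0.00744 by edgeR), FOSL1 (-0.48 ± 0.14, adjusted P 0.0167) and JUNB (-0.27 ± 0.06, adjusted P 0.00211) were lower in p53 TM and EGR1 was higher (0.31 ± 0.08, adjusted P 0.0108). All 3 replicate pairs shared the direction in each of these genes.

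At 6 h p53 TM and wild type p53 differed in other members of the set, FOS and EGR1, in some fits, though not in the main fit as labelled. As labelled, the p53 TM libraries counted 33.7, 14.9 and 30.7 CPM of FOS and 83.0, 36.4 and 96.9 CPM of EGR1, against 17.5, 15.6 and 16.3 CPM and 43.9, 38.8 and 62.0 CPM with wild type p53. The library labelled p53 TM replicate 2, one of the pair of conflicting title, was the lowest of all 15 libraries at 6 h in both genes, and the other 2 were the highest in EGR1. FOS also stood highest in these 2 libraries. As labelled no gene of the 9 passed (0.0766% of all genes), with FOS at 0.69 ± 0.19 (adjusted P 0.0861 by edgeR) and EGR1 at 0.58 ± 0.26 (adjusted P 0.281). With a replicate block within each time FOS alone passed as labelled (0.66 ± 0.18, adjusted P 0.0344 by edgeR), beside 7.9% of all genes. Under the other grouping FOS (0.88 ± 0.16, adjusted P 1.73e-04) and EGR1 (0.72 ± 0.21, adjusted P 0.0182) were higher, 2 genes of 9 beside 14.6% of all genes. Without the pair of libraries FOS was higher by 0.97 ± 0.15 (adjusted P 4.34e-05) and EGR1 by 0.90 ± 0.22 (adjusted P 0.00766), with 10.9% of all genes.

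The comparison of p53 TM with p53 O6-meG at 6 h turned on the same libraries. As labelled no gene of the 9 passed (0% of all genes). EGR1 stood at 43.2, 59.3 and 40.2 CPM in the libraries labelled p53 O6-meG, where the highest was the one of conflicting title. Under the other grouping EGR1 was higher in p53 TM by 1.00 ± 0.21 (adjusted P 0.00225 by edgeR) and FOS by 0.56 ± 0.16 (adjusted P 0.0206), beside 8.3% of all genes. Without the pair of libraries EGR1 was higher by 1.11 ± 0.25 (adjusted P 0.00822; 4.1% of all genes), while FOS, at 0.48 ± 0.16, did not pass (adjusted P 0.118). Since O6-bzG was given in p53 TM alone, a response of FOS and EGR1 to the drug and one to the altered p53 cannot be told apart.

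ATF3 at 6 h did not go with CDKN1A in p53 TM. The libraries labelled p53 TM counted 16.2, 13.1 and 11.0 CPM of ATF3, all above pGFP (0.90 ± 0.17, adjusted P 0.0327 by edgeR; 0.0814% of all genes passed and no other of the 9 genes). In replicates 1 and 3, whose titles do not conflict, CDKN1A held 12% and 8.27% of the mean rise with wild type p53, and ATF3 151% and 63.9% of its own. The call on ATF3 held under the other grouping (0.76 ± 0.17, adjusted P 0.038; 0.316% of all genes) and without the pair of libraries (0.92 ± 0.17, adjusted P 0.0113; 0.202%), where FOS passed as well (0.72 ± 0.15, adjusted P 0.0287). It was lost without any 1 library other than the one labelled p53 TM replicate 3, with adjusted P up to 0.39. Against wild type p53, ATF3 in p53 TM differed by 0.03 ± 0.17 as labelled (95% interval -0.33 to 0.38), by -0.12 ± 0.16 under the other grouping and by 0.04 ± 0.17 without the pair of libraries. Whether the difference in ATF3 between p53 TM and pGFP changed from 6 h to 24 h was tested and did not pass (-0.36 ± 0.25, adjusted P 0.853), nor did it under the other grouping (-0.21 ± 0.24) or without the pair (-0.37 ± 0.23).

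**Figure D2:**
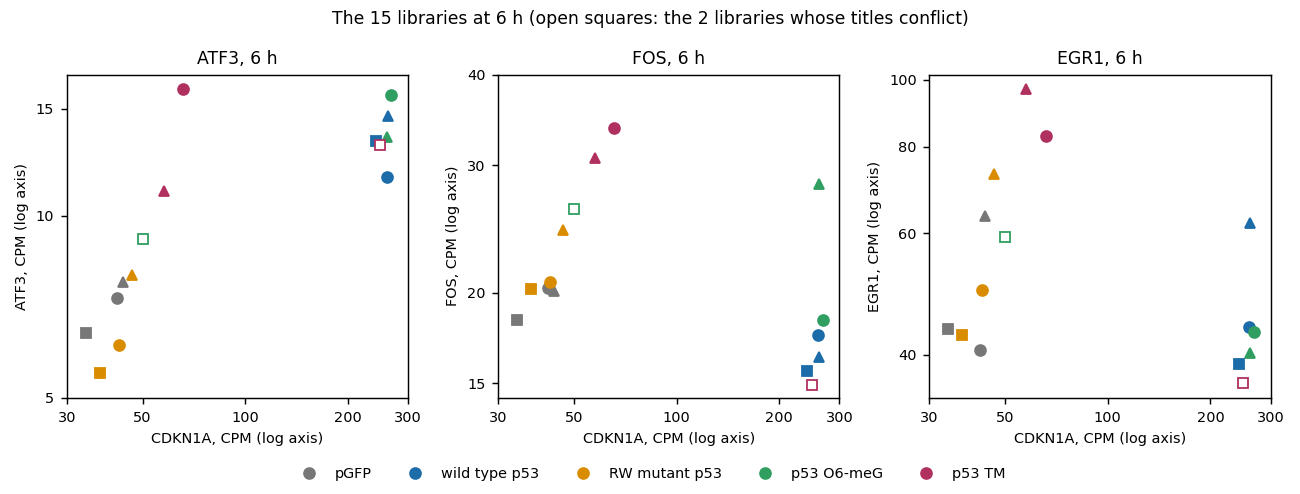
Levels of ATF3, FOS and EGR1 (CPM, log axis) against that of CDKN1A (CPM, log axis) in the 15 libraries at 6 h, with circles, squares and triangles for replicates 1, 2 and 3. The 2 unambiguous p53 TM libraries lie near 60 CPM of CDKN1A with the highest EGR1 and FOS of all, and on the CDKN1A axis each open square, a library of conflicting title, lies with the other group of the pair.

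JUN, JUND and FOSL2, genes with broad basal transcription, followed the replicate number at 24 h more than the vector. JUN, the main partner of FOS, stood at 30.7, 59.7 and 43.9 CPM with pGFP, 26.7, 46.0 and 47.5 CPM with wild type p53, 28.5, 52.7 and 47.9 CPM with RW mutant p53, 21.5, 40.6 and 49.2 CPM with p53 O6-meG and 18.5, 39.6 and 42.4 CPM with p53 TM. Replicate 1 was the lowest library in all 5 vectors, on average 0.61 below the group mean on the log2 scale. FOSL2 and JUNB were likewise below their group means in replicate 1 of all 5 vectors, by 0.42 and 0.26 on average, and JUND by 0.36. EGR1 went the other way and stood above the group mean in replicate 1 of all 5 vectors, by 0.24. The TMM factors of these 5 libraries lay between 1.035 and 1.163. Correlation of each library's deviations with the GC content of the transcripts lay between -0.10 and 0.03 in them, over 20680 genes. What replicate 1 shares was not tested further. At 6 h replicate 2 was below the group mean in JUN and in JUND in all 5 vectors, by 0.27 and 0.31 on average.

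Over these deviations from group means JUN correlated with JUNB at r = 0.91 and with FOSL2 at 0.86 over the 30 libraries. FOS correlated with FOSB at 0.69 and with EGR1 at 0.68, but with JUNB at 0.25. These deviations include the libraries of conflicting title, and over the 24 libraries outside p53 O6-meG and p53 TM at 6 h, a choice made after seeing the data, FOS correlated with FOSB at 0.51 and with EGR1 at 0.48, JUN with JUNB at 0.91 and JUN with FOSL2 at 0.88. Over the levels themselves, which also hold the rise with time, FOS correlated with EGR1 at r = 0.96 (rho 0.87) and with JUNB at 0.90 (rho 0.83), and ATF3 with FOSL1 at 0.70 (rho 0.73). The libraries share the vectors and 2 times, and these values are descriptions. Among 14154 other genes with a mean of at least 1 CPM, those most like ATF3 over the 30 libraries were DDIT4 (r = 0.91, rho 0.87), SESN2 (r = 0.90, rho 0.87) and PLK3 (r = 0.88, rho 0.87). For FOS they were EGR4 (r = 0.97), BMAL1 (0.96) and KDM5B (0.96). For EGR1 they were MTMR3, KDM7A and EPHX1, each at r = 0.97, and for JUN they included MYC (0.89) and INSIG1 (0.88).

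Other genes of these pathways were read from lists. Of 20 other immediate early genes, 9 were higher and 0 lower with wild type p53 at 24 h, with a median log2 fold change of 0.28, against 4241 higher and 3044 lower and a median of 0.01 over all 20875 genes. Those of smallest adjusted P by edgeR were ARC (2.00 ± 0.18, 1.41e-08), the orphan nuclear receptor NR4A1 (1.65 ± 0.17, 4.62e-08), the small GTPase RHOB (1.67 ± 0.18, 1.56e-07) and BTG2, itself a known p53 target (5.05 ± 0.80, 1.77e-05). In p53 TM against wild type p53 at 24 h, 5 of the 20 were lower and 0 higher (median -0.43, against -0.01 over all genes with 1767 higher and 2093 lower). Of these ARC (-1.53 ± 0.18, adjusted P 6.63e-06), NR4A1 (-1.29 ± 0.16, 1.30e-05), RHOB (-0.79 ± 0.18, 0.00333) and DUSP1 (-0.55 ± 0.15, 0.013) had the smallest adjusted P. From 6 h to 24 h with pGFP 11 of the 20 were higher and 0 lower (median 0.67, against 0 with 3836 higher and 4544 lower over all genes), with the smallest adjusted P in ARC (2.92 ± 0.22), NR4A2 (1.31 ± 0.25), NR4A3 (1.31 ± 0.26) and DUSP1 (0.78 ± 0.16). At 6 h wild type p53 left 5 of the 20 higher and 0 lower (median 0.07), against 1594 higher and 232 lower of all genes.

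EGR2, the relative of EGR1, was the gene of the EGR and NAB list that moved with p53. It held 3 to 4 reads per library with pGFP at 6 h and 134 to 270 with wild type p53, and at 24 h 16 to 32 reads against 775 to 1473 (5.51 ± 0.68 on the log2 scale, adjusted P 5.49e-07 by edgeR). EGR1 itself did not pass in either comparison, where 8.75% of all genes passed at 6 h and 34.9% at 24 h. EGR2 was lower in p53 TM than with wild type p53 at 24 h (-1.82 ± 0.53, adjusted P 0.0166), as was NAB1, a corepressor of EGR proteins (-0.33 ± 0.10, adjusted P 0.0243). The other 3 of the 5 genes of this list did not pass in p53 TM against wild type p53, where 18.5% of all genes passed. From 6 h to 24 h with pGFP, where 40.1% of all genes passed, 3 of the 5 were higher, among them EGR4 (1.85 ± 0.28, adjusted P 1.24e-05) and EGR3 (1.47 ± 0.55, 0.0343), and NAB1 was lower (-0.54 ± 0.10, 1.38e-04). The call on EGR3 rests on few reads, 3 to 10 per library at 6 h and 9 to 19 at 24 h.

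Of the 6 genes of SRF and its cofactors, SRF and MRTFA were higher and ELK1 lower with wild type p53 at 24 h (median 0.20), where 34.9% of all genes passed. SRF stood at a mean of 163 CPM against 82.8 CPM with pGFP (0.98 ± 0.11, adjusted P 1.66e-07 by edgeR), and it was lower in p53 TM than with wild type p53 by -0.68 ± 0.11 (adjusted P 1.38e-04). Of 12 genes of the MAPK cascade 4 were higher and 4 lower with wild type p53 at 24 h (median -0.04), again beside 34.9% of all genes. The p38 genes MAPK14 (0.70 ± 0.08, adjusted P 1.65e-07) and MAPK11 (1.57 ± 0.20, 1.12e-06) were higher, whereas MAPK8, which encodes the JUN kinase JNK1, was lower (-0.50 ± 0.07, 8.49e-06). Of 9 tested AP-1 partners only ATF2 passed, and was lower (-0.31 ± 0.07, adjusted P 0.00166).

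Of 15 genes listed as AP-1 targets 12 passed the filter on low counts, and of these, 5 were higher and 1 lower with wild type p53 at 24 h, with a median of 0.38, beside 34.9% of all genes. HMOX1 (1.35 ± 0.17, adjusted P 1.02e-06 by edgeR) and PLAU (0.81 ± 0.22, 0.00434) were higher, and the collagenase gene MMP13 was lower (-0.88 ± 0.24, 0.00508). HMOX1 and PLAU are also targets of other factors. In p53 TM against wild type p53, 5 of the 12 were lower and 0 higher (median -0.49), beside 18.5% of all genes, among them CCND1, HMOX1 and PLAU. From 6 h to 24 h with pGFP, while FOS and FOSB rose, 3 of the 12 were higher and 4 lower, beside 40.1% of all genes. HBEGF, which encodes an EGF receptor ligand, was higher (0.72 ± 0.11, adjusted P 8.03e-06), whereas CCND1 (-1.18 ± 0.15, 1.24e-06) and PLAUR (-0.65 ± 0.09, 1.50e-06) were lower.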

How the data were processed

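RNA-seq libraries were made by the authors from sorted H1299 cells with an rRNA-depleting, stranded kit, aligned to hg38 with STAR 2.5.3a and counted per gene with featureCounts, as their methods and processing notes state. The deposited table of raw counts for 39359 genes in 30 libraries was used, and the deposited normalized table was not. Genes were matched by Ensembl identifier to GENCODE (38904 matched, 455 did not).

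Counts were normalized by TMM in edgeR 4.0.16 (R 4.3.3), filtered with filterByExpr and fitted by edgeR's quasi-likelihood test over all 30 libraries, with 22 comparisons. A gene was called at an adjusted P under 0.05 (Benjamini-Hochberg over 20875 genes), with no limit on fold change. The test was checked on simulated data. Levels are TMM-normalized CPM, per kb of exon union where genes are compared, and correlations used a prior count of 2. Depth ran from 32302699 to 71950532 counts, and 30 replicate pairs differed by more than counting noise (chi-square per degree of freedom 6.08 to 47.36).

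Groups came from the labels. Titles of 2 libraries at 6 h conflict, and they were placed by the genotype field, which the column names of the count table contradict. Same-numbered 24 h libraries deviated together (30 of 30 pairs above 0.1) and 6 h libraries did so less (5 of 9). The 24 h libraries were therefore treated as paired in a further fit with the replicate number as a block. That fit, and the block combined with either treatment of the conflicting titles, were chosen after seeing the data. Alternatives are DESeq2 1.42.0, its size factors, other filters, fits of fewer groups, a replicate block and leaving out each library. The 9 genes are always named, and at most 4 called genes per list and comparison by smallest adjusted P. The 9 genes and the lists were chosen with earlier results of these data known. Some genes that this rule names are not reported here.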

Additional observations from a re-analysis of the deposited data

Results flagged for a closer look

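The change in FOSB between 6 h and 24 h differed between p53 O6-meG and pGFP, by -2 ± 0.51 on the log2 scale (adjusted P 0.0138 by edgeR's quasi-likelihood test), which is why it is listed here. FOSB went from 6.08, 7.90 and 7.17 CPM to 27.9, 41.3 and 32.6 CPM with pGFP, and from 6.27, 8.92 and 28.7 CPM to 15.5, 22.1 and 14.7 CPM with p53 O6-meG. Without the third p53 O6-meG library at 6 h the difference was -1.06 and did not pass (adjusted P 0.0804). The library of 8.92 CPM is one of the pair of conflicting title. The difference passed under the other grouping (-1.85 ± 0.53, adjusted P 0.0284) and without the pair (-2.25 ± 0.46, adjusted P 0.00449). A direct test of this difference against wild type p53 was not run.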

How the results depend on the processing

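Over all alternatives and single genes, 3204 values kept their call or lack of one, 48 calls were lost, 141 were gained and 0 turned direction. The number of the 9 genes called is given here where it moved by over 1.5 times, with the share of all genes called in the same fit in parentheses, and the cause was not tested. With only the groups compared in the fit, it was 4 (19.4%) for wild type p53 against pGFP at 6 h, 0 (0.0111%) for p53 O6-meG and 0 (0.0221%) for p53 TM against pGFP at 6 h, 1 (9.31%) for p53 TM against wild type p53 at 24 h and 1 (7.86%) for the change over time with wild type p53. The DESeq2 Wald test gave 1 (1.53%) for p53 TM against wild type p53 at 6 h. Without a filter that comparison gave 1 (0.816%), and p53 TM against pGFP and against wild type p53 at 24 h gave 0 (3.56%) and 0 (8.01%). For p53 TM against pGFP at 24 h, DESeq2's size factors gave 0 (8.48%) and a minimum of 10 counts gave 0 (11.4%). Under the other grouping, p53 TM against wild type p53 and against p53 O6-meG at 6 h gave 2 (14.6%) and 2 (8.3%), and the change over time in p53 TM gave 1 (4.38%). With both libraries of conflicting title left out, p53 O6-meG and p53 TM against pGFP at 6 h gave 2 (4.85%) and 2 (0.202%), p53 TM against wild type p53 2 (10.9%) and against p53 O6-meG 1 (4.1%), p53 TM against pGFP at 24 h 2 (10.7%), and the change over time in p53 TM 1 (3.1%).

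The replicate block within each time gave 1 (2.99%, FOSB) for p53 O6-meG and 1 (7.9%, FOS) for p53 TM against wild type p53 at 6 h. The same block gave 2 (17.9%) for p53 TM against pGFP at 24 h and 1 (13.3%) for the change over time with wild type p53 (JUNB). It also called FOSL2 from 6 h to 24 h with each vector (0.35 to 0.62) and FOSL1 with wild type p53 (0.51). Combined with both libraries left out it gave 2 (18.8%), 4 (17.2%) and 4 (1.54%) for wild type p53, p53 O6-meG and p53 TM against pGFP at 6 h, 3 (6.42%) and 5 (21.1%) for p53 O6-meG and p53 TM against wild type p53, and 3 (12.2%) for p53 TM against p53 O6-meG. It gave 5 (21.7%) for p53 TM against pGFP and 4 (25.3%) against p53 O6-meG at 24 h, 5 (54.9%) for p53 O6-meG over time, and 2 (18.3%) and 3 (8.99%) for the change over time with wild type p53 and p53 TM. Combined with the other grouping it gave 2 (20.4%) and 3 (3.34%) for p53 O6-meG and p53 TM against pGFP at 6 h, 4 (26.1%) and 3 (18.8%) for p53 TM against wild type p53 and p53 O6-meG, and 4 (22.5%) and 4 (26.3%) for p53 TM against pGFP and p53 O6-meG at 24 h. It gave 5 (59%) for p53 O6-meG and 7 (60.8%) for p53 TM over time, and 2 (19.1%) and 2 (11.3%) for the change over time with wild type p53 and p53 TM. In the 24 h libraries alone the block gave 5 (45.9%) and 4 (23%) for p53 O6-meG and p53 TM against pGFP, 6 (38.7%) for p53 TM against wild type p53 and 4 (26.8%) against p53 O6-meG, and beyond these and FOSB with wild type p53 it changed no other call. At 6 h the libraries share only a number (median correlation of deviations 0.127 for the same number).

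Leaving out 1 library gave 0 to 1 for p53 O6-meG and for p53 TM against pGFP at 6 h, for p53 O6-meG against wild type p53 at 6 h, for p53 TM against pGFP and against wild type p53 at 24 h, and for the changes over time with p53 O6-meG and p53 TM. It gave 0 to 2 for p53 TM against wild type p53 at 6 h, 1 to 3 for p53 O6-meG against pGFP at 24 h and 3 to 6 for p53 O6-meG over time. The rises of ATF3 with wild type p53 at 6 h and 24 h, and those of FOSL1 and JUNB at 24 h, were kept without any 1 of their 6 libraries.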
